A study of Mus musculus with 12 samples.

Results

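mmu-miR-3960, mmu-miR-2861 and mmu-miR-2137 are 3 mouse microRNAs, written below without the species prefix and taken here by name from the 1915 mouse names of the count table. They were put together as the neighbouring GC-rich names miR-3960 and miR-2861, with miR-2137, and were chosen by the size of their fold change after bile duct ligation, over all libraries and with and without the library BDL 2. That choice used the counts analysed here, so the differences between the groups are given below as descriptions, without a test. A large rise is seen in 2 of the 3, which restates the choice and is no separate result. miR-3960 and miR-2137 had the highest fold changes of the 341 names that passed the filter on low counts, while miR-2861 had 0 to 25 counts per library, did not pass that filter and was no higher after ligation.

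The libraries hold small RNA from extracellular vesicles of plasma, taken 8 days after surgery from male mice of the inbred strain C57BL/6J. The common bile duct was tied in 6 (BDL) and 6 had a sham operation (sham), and no age is given for them. The groups follow the titles and the treatment label, whereas the treatment protocol label names ligation for all 12 libraries, sham included, a conflict that bears on every difference between the groups. The design text speaks of 6 animals per group, but the labels do not tie a library to an animal, so p-values measure the spread between libraries. A tissue label names liver and the site label names extracellular vesicles. Sample codes end in 24 or 26, 3 of each in each group, and begin with a digit that 1 library of either suffix shares (1 to 3 in BDL, 4 to 6 in sham). What the digit and the suffix stand for is not given.

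A microRNA is cut from a hairpin in a longer transcript and guides an Argonaute protein to messenger RNAs, mostly through its seed, bases 2 to 8 from the 5′ end. miR-2861 and miR-3960 are known from osteoblasts, the bone-forming cells, where they were described as a cluster induced by the transcription factor Runx2. miR-2861 was described to repress Hdac5, a histone deacetylase that lowers Runx2, and miR-3960 to repress Hoxa2, a homeobox factor that opposes osteoblast formation. Vesicles in plasma come from many cell types, chiefly of blood, vessel wall and liver.

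The sequences show what the names have in common and what separates them. The mature sequence of miR-3960 is not in the RefSeq table used (GRCm38.p6), so its seed and its mature share of G and C are not given. Mature sequences of miR-2861 and miR-2137 from that table are printed first, with the seed in capitals, because the counts are filed under these names:
miR-2861: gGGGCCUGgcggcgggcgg
miR-2137: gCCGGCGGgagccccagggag
miR-2861 has 19 bases, 94.7% of them G or C, and lies at chr2:32712819-32712837 on the minus strand. miR-2137 has 21 bases, 85.7% of them G or C, and lies at chrX:72992113-72992133 on the plus strand. Among the 1623 mouse names of the table with a mature sequence, where the median was 52.2% G and C, they ranked 3rd and 6th. Their seeds differ. That of miR-2861 is shared with 1 other name, miR-3091-3p, which did not pass the filter, and that of miR-2137 with 0 others.

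The hairpins of miR-3960 and miR-2861 are neighbours on the minus strand of chromosome 2, at 32712900 to 32712972 and 32712807 to 32712888, with 11 bases between them. Both lie in the untranslated part of an exon of Cdk9, the kinase that releases paused RNA polymerase II, and on the strand of that gene. Of the 9 Cdk9 transcripts in GENCODE M21 (GRCm38), 1 holds them, 104 and 188 bases downstream of its start. The miR-3960 hairpin has 73 bases and 82.2% G and C, the 4th highest of 1005 hairpins in the RefSeq table. The miR-2861 hairpin has 82 bases and 73.2%.

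**Figure D1:**
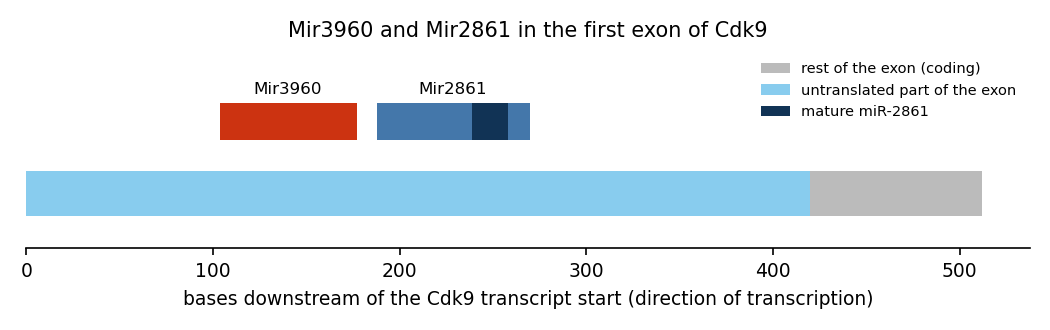
Positions of the Mir3960 and Mir2861 hairpins along the Cdk9 exon that holds them, in bases downstream of the transcript start (x axis). The hairpins start at 104 and 188 bases and both lie in the untranslated part of the exon.

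The miR-2137 hairpin stands alone on the X chromosome, at 72992079 to 72992144 on the plus strand. It lies in an intron of all 3 annotated Zfp185 transcripts, 3677 bases from the nearest exon. It is shown whole, with the mature part in capitals, because the mature sequence sits on its 3′ side, from base 35 of 66:
Mir2137: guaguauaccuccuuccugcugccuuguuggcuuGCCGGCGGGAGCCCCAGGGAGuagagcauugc
Only 60.6% of this hairpin is G or C. The mature sequence of miR-2861 likewise starts on the 3′ side of its hairpin, at base 52 of 82.

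Reads this short may match other transcripts, so each hairpin was searched for stretches of 18 bases that also stand in transcripts of other genes. The search took the sense strand and left out the host gene and all genes whose names begin with Mir. In the miR-3960 hairpin 14 of 56 stretches did, in 32 other genes in all. The most widely shared stretch, printed because 16 other genes hold it, starts at base 44 of the hairpin and is made of GGC triplets but for 1 GGA:
Mir3960: ggcggcggcggcggaggc
None of the 65 stretches of the miR-2861 hairpin and none of the 49 of the miR-2137 hairpin was found in the other genes searched. Of 1005 RefSeq hairpins, 48 (4.78%) shared stretches with 10 or more genes, a count in which host genes were not left out. Whether the shared stretches lie in the counted mature part of miR-3960 is not known, as its mature sequence is missing from the RefSeq table. How reads with several matches were counted is not known from the sources used here either. Whether the counts of miR-3960 come from that hairpin alone is therefore uncertain and was not tested.

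Totals ran from 121003 (BDL 4) to 3506914 counts (BDL 1). Levels are given as CPM, a count per 1000000 counts of a library size corrected by the trimmed mean of M values (TMM), and 3 counts, the limit that a count of 0 allows, came to 0.624 CPM in BDL 1 and 24 CPM in BDL 4. Such limits cover counting error only, as no molecular identifiers are described. In bulk libraries fewer cells of a type and less RNA per cell cannot be told apart, nor can more vesicles and more copies per vesicle.

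miR-3960 took a small share of the counts in sham and ranked far higher after ligation. Sham libraries had 32.1 CPM at the lowest, 49.2 at the median and 91.2 at the highest. BDL libraries had 1342 CPM at the lowest, 2093.5 at the median and 61194 at the highest. Every BDL library was above every sham library, and the lowest BDL level was many times the highest sham level. The groups' means were 53.1 ± 21.2 and 12906 ± 23851 CPM (SD, n = 6 each), and the log2 fold change, BDL minus sham, was 7.93 ± 1.07 (SE).

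The BDL mean of miR-3960 rests on 1 library. BDL 2 had 34051 reads of this name, 5.46% of its counts, and BDL 6 had 9281 CPM, while the other 4 had 1342 to 2382 CPM. Without BDL 2 the mean was 3248 ± 3397 CPM (SD, n = 5) and the log2 fold change 5.76 ± 0.52 (SE). Ranked within a library, miR-3960 stood between 120th and 186th in sham and between 4th and 42nd in BDL. By mean CPM it was 152nd of 1915 names in sham and 7th in BDL.

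miR-2137 showed the same order of groups on a smaller scale. Sham libraries had 25.3, 34.2 and 51.8 CPM at the lowest, median and highest, and BDL libraries 591, 698 and 3654 CPM. No BDL library overlapped the sham libraries. Here too BDL 2 (3654 CPM) and BDL 6 (2700 CPM) stood above the other 4, which had 591 to 740 CPM. The groups' means were 36.7 ± 11.3 and 1496 ± 1337 CPM (SD, n = 6 each). The log2 fold change was 5.36 ± 0.54 (SE), and 4.72 ± 0.43 without BDL 2. By mean CPM it moved from 184th to 35th of 1915 names.

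miR-2861 did not show the rise seen in its neighbour. Its counts were 25, 3, 4, 2, 9 and 2 in sham libraries 1 to 6 and 6, 2, 1, 0, 3 and 4 in BDL libraries 1 to 6. The groups overlapped, and sham 1 alone held 25 of the 45 sham counts. Its level was 3.69 ± 2.68 CPM in sham and 2.41 ± 2.73 in BDL (SD, n = 6 each). Summed over libraries, it took 4.29 of every 1000000 counts in sham (exact Poisson 95% interval 3.13 to 5.75, or 2.57, 1.57 to 3.96, without sham 1) and 1.81 in BDL (1.04 to 2.94), intervals that cover counting error only. In a fit with no filter on low counts its log2 fold change was -0.98 ± 0.75 (SE), and -0.37 ± 0.84 without sham 1. The count of 0 in BDL 4 allows a level of up to 24 CPM. In BDL 2, where 3 counts are 5.39 CPM, miR-2861 had 2 counts beside 34051 of miR-3960.

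**Figure D2:**
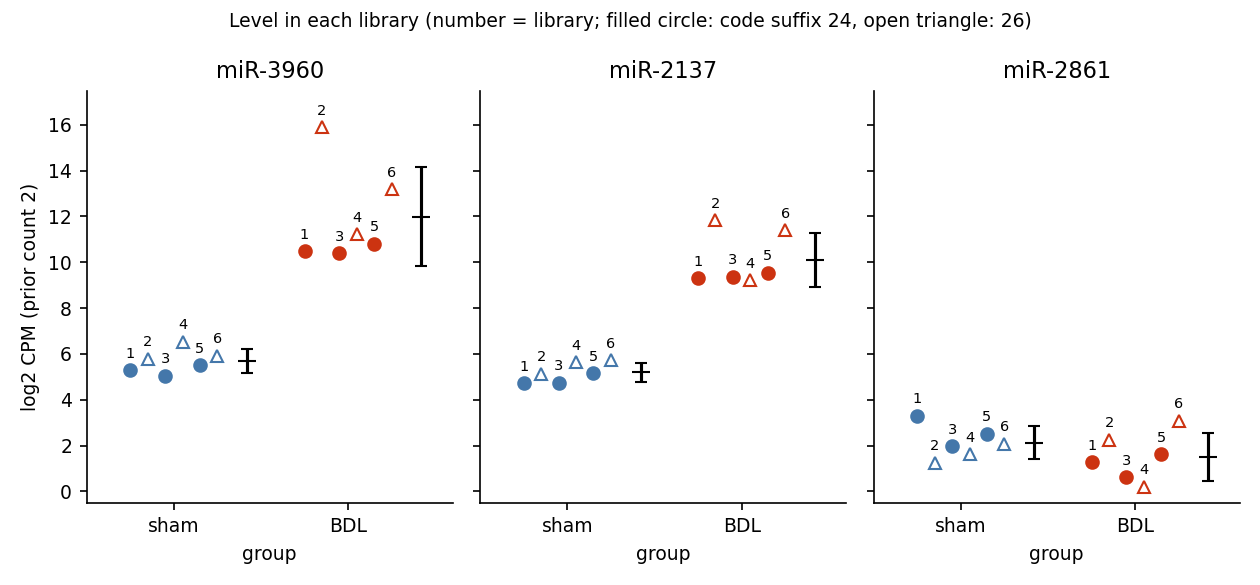
Level of each name in each library, as log2 CPM with a prior count of 2 (y axis), by group (x axis), with the library number above each point and mean ± SD as black bars (n = 6). miR-3960 and miR-2137 are higher in every BDL library than in any sham library, with BDL 2 and BDL 6 highest, and miR-2861 overlaps between the groups.

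Set against each other within a library, the counts of the neighbours parted after ligation. Over the 6 sham libraries miR-3960 had 510 counts and miR-2861 45, or 11.3 to 1, and within libraries the ratio ran from 4.36 to 47.5. Over the 6 BDL libraries the sums were 52706 and 16, or 3294 to 1, and within the 5 libraries with a miR-2861 count the ratio ran from 944 to 17026. These ratios depend on few miR-2861 counts.

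miR-3960 and miR-2137, from different chromosomes, kept a narrow ratio in sham. There were 1.44 ± 0.264 counts of miR-3960 per count of miR-2137 in sham (SD, n = 6; 1.15 to 1.86) and 5.16 ± 5.73 in BDL (2.04 to 16.7). Every BDL ratio was above every sham ratio. The highest was in BDL 2, and in the other 5 BDL libraries the ratio was at most 4.03. A ratio that differs between the groups follows from the unequal rises that chose these names and is given as a description.

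Within sham the levels of miR-3960 and miR-2137 correlated positively, but not past the threshold after adjustment. Pearson's r of log2 CPM was 0.88 (n = 6; two-sided exact permutation p = 0.0222, adjusted 0.0667 over 6 correlations) and Spearman's rho 0.83 (exact permutation p = 0.0583, adjusted 0.175). Without the 2 libraries farthest from the median of miR-3960 the sham r was 0.89. The choice of names took note of BDL 2, so correlations within BDL are not independent of it and are given as a description. For miR-3960 and miR-2137 in BDL, r was 0.94 and rho 0.60 (n = 6). That relation rested on BDL 2 and BDL 6, since r was -0.30 over the other 4 libraries.

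For miR-2861, whose counts were few, the correlations had no common direction. With miR-3960, the sham libraries gave an r of -0.52 (n = 6; two-sided exact permutation p = 0.283, adjusted 0.34) and a rho of -0.43 (exact permutation p = 0.419, adjusted 0.503). With miR-2137 they gave an r of -0.47 (n = 6; exact permutation p = 0.372, adjusted 0.372) and a rho of -0.26 (exact permutation p = 0.658, adjusted 0.658). In BDL, r with miR-3960 was 0.65 and rho 0.60, and r with miR-2137 was 0.84 and rho 0.89. Without the 2 farthest libraries, r with miR-3960 was -0.82 in sham and -0.37 in BDL, and r with miR-2137 was -0.53 in sham and 0.82 in BDL.

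**Figure D3:**
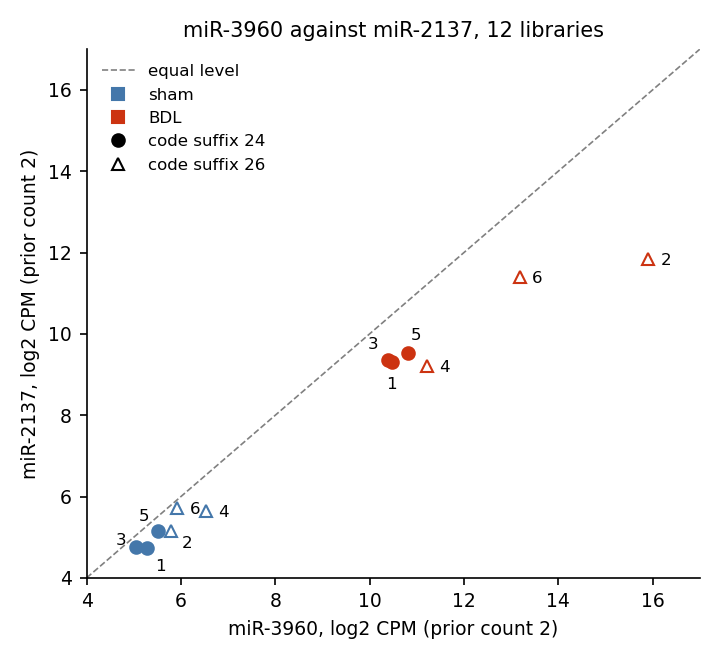
Log2 CPM (prior count 2) of miR-2137 (y axis) against miR-3960 (x axis) in the 12 libraries, numbered within each group, with a dashed line where the levels are equal. The sham libraries lie close to that line and the BDL libraries farther below it, BDL 2 farthest.

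Among all names tested, rises of this size were rare. Of 341 names, 84 (24.6%) were higher and 62 (18.2%) lower in BDL by edgeR's quasi-likelihood test at an adjusted p under 0.05, or 42.8% in either direction. In 40 (11.7%) every BDL library was above every sham library, and in 9.38% below. miR-3960 and miR-2137 were in both the higher and the non-overlapping sets, which their choice by fold change favoured. They ranked 1st and 2nd by log2 fold change, where the median of all names was 0.03. With no filter on low counts miR-3960 was again 1st of 1731 names (7.45) and miR-2137 was 4th (5.10). Just behind them came miR-3473a at 4.78 ± 0.70 and miR-3473e at 4.71 ± 0.82, then miR-122-5p, the leading microRNA of hepatocytes, at 4.26 ± 0.55, miR-6964-5p at 4.16 ± 0.82 and miR-3470b at 3.89 ± 0.58 (log2 fold change ± SE). The distance from miR-3960 to the rest was thus larger than its SE, while that from miR-2137 to miR-3473a was about as large as the SE of either. That order was not tested.

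**Figure D4:**
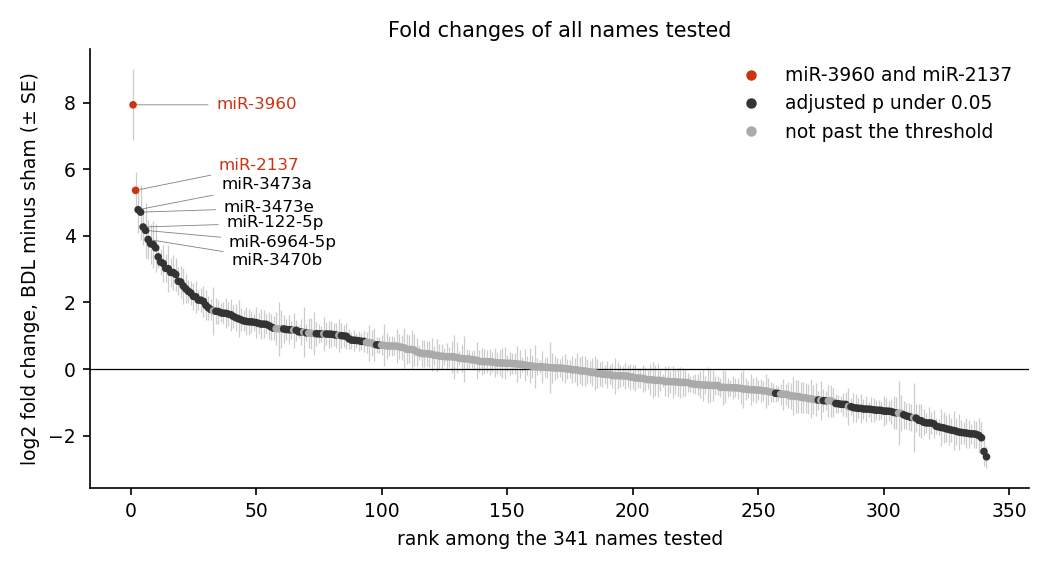
Log2 fold change, BDL minus sham, with its SE (y axis) for the 341 names tested, by rank (x axis), with the first 7 labelled. miR-3960 (7.93) and miR-2137 (5.36), in red, are 1st and 2nd, and miR-2861 is not shown because it did not pass the filter.

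Mean levels in BDL differed between the suffixes of the sample code. For miR-3960, BDL libraries with suffix 24 had 1527 ± 245 CPM (1342 to 1805). Those with suffix 26 had 24286 ± 32149 CPM (2382 to 61194, SD, n = 3 each). For miR-2137 these were 677 ± 56.2 and 2315 ± 1567 CPM, with BDL 4, of suffix 26, the lowest of all 6. A model of group and suffix was fitted with edgeR over 341 names. In it, suffix 26 exceeded suffix 24 within BDL by 3.99 ± 0.74 (SE) log2 units for miR-3960 and by 1.78 ± 0.45 for miR-2137. The choice of names took note of BDL 2, so these differences are not independent of it and are given as a description, with no test. Over all names, the quasi-likelihood test called 10.3% higher and 8.5% lower in suffix 26, 18.8% in all, at an adjusted p under 0.05. Without BDL 2 the differences were 1.71 ± 0.42 for miR-3960 and 1.06 ± 0.44 for miR-2137. With libraries left out in turn they ran from 1.71 to 4.62 and from 1.06 to 2.23. With the first digit of the code as a block, they were 2.77 ± 0.60 and 1.47 ± 0.45.

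In sham, the same contrast was smaller. miR-3960 had 38.1 ± 6.15 CPM with suffix 24 (32.1 to 44.3) and 68.2 ± 20.1 with suffix 26 (54.1 to 91.2, SD, n = 3 each). The log2 difference was 0.84 ± 0.70 (edgeR adjusted p = 0.986). miR-2137 had 28.4 ± 5.05 and 45 ± 9.47 CPM, which overlapped, a difference of 0.64 ± 0.47 (adjusted p = 0.986). edgeR called 0 of 341 names (0%) in this contrast, with 13 at an unadjusted p under 0.05, and DESeq2 called 0 as well. A miss of the threshold with 3 libraries against 3 does not show that the levels were alike.

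The effect of ligation on miR-3960 was 5.32 ± 0.80 log2 units within suffix 24 and 8.48 ± 0.91 within suffix 26. The choice of names used the ligation effect with and without BDL 2, so the difference between the suffixes is a description, with no test. It was 3.16 ± 0.98 (SE) for miR-3960, 0.93 without BDL 2, 3.79 without BDL 4 and 1.97 with the first digit of the code as a block. For miR-2137 the effects were 4.57 ± 0.51 and 5.71 ± 0.54 and their difference 1.14 ± 0.64, or 0.82 with that block. Over all names, edgeR's interaction test called 8 of 341 (2.35%; 1.47% higher in suffix 26), or 2 to 14 when libraries were left out in turn.

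Depth and other names moved with the suffix. BDL libraries of suffix 26 had 121003 to 666310 counts and those of suffix 24 had 1635616 to 3506914. With every library thinned at random to the 121003 counts of BDL 4, the log2 fold changes were 8.45 for miR-3960 and 5.45 for miR-2137. From all counts they were 7.93 and 5.36. The suffix differences within BDL were 3.99 and 1.80 when thinned, beside 3.99 and 1.78 from all counts. Thinning evens the totals only and leaves in place whatever else went with depth. Leukocyte markers, 5 names, summed to 1757 to 2214 CPM in BDL suffix 24 and 563 to 668 in suffix 26. The 2 platelet and endothelial markers summed to 2032 to 2619 and 631 to 773 CPM, and the 4 red cell markers to 2072 to 2438 and 510 to 1535 CPM. The 3 hepatocyte markers summed to 74747 to 211561 and 146565 to 327679 CPM. The part of these in the result was not tested.

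**Figure D5:**
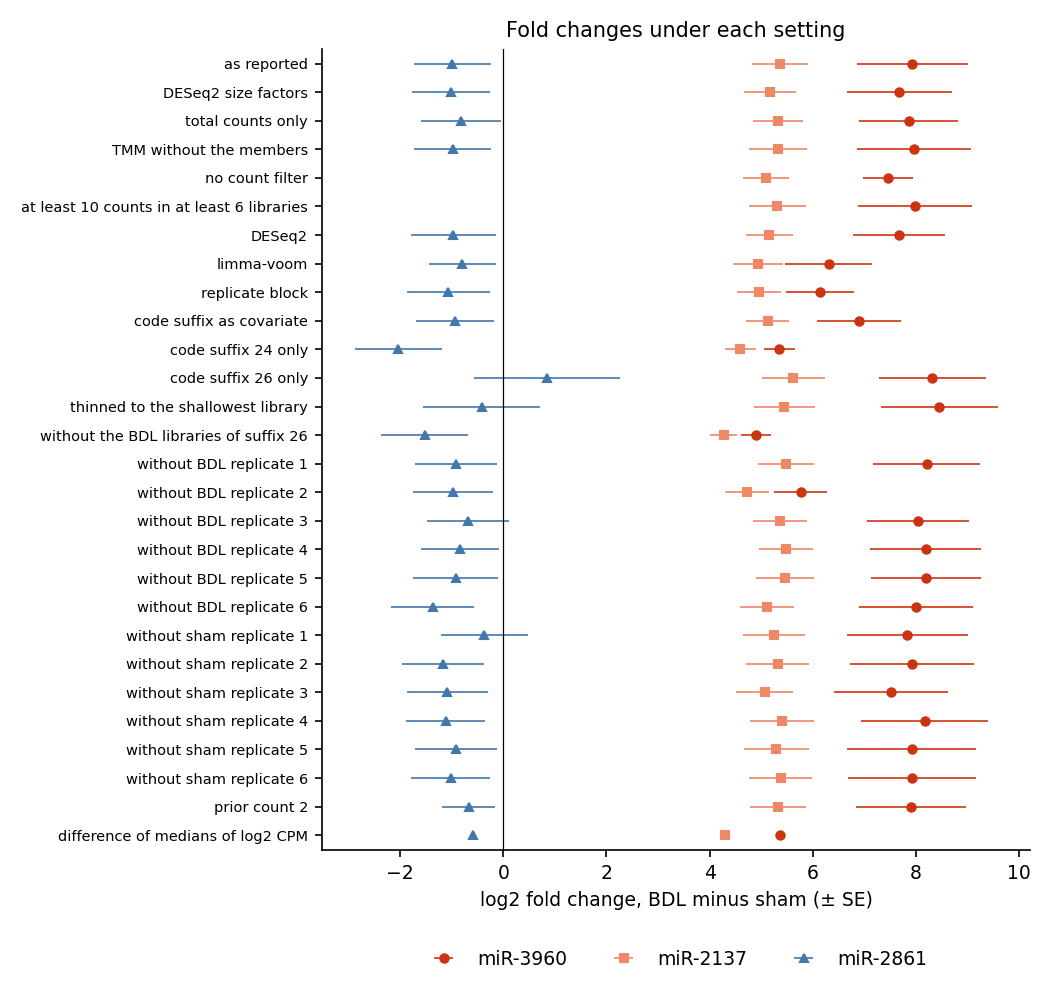
Log2 fold change, BDL minus sham, with its SE where the fit gives one (x axis), under each processing setting (y axis). miR-3960 stays between 4.90 and 8.45 and miR-2137 between 4.27 and 5.62, while miR-2861, read from fits with no count filter, is below 0 in all but the fit of suffix 26.

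Names whose levels over the 12 libraries were most like those of miR-3960 were miR-3470b (Pearson's r of log2 CPM 0.96), miR-712-5p (0.96), miR-1249-3p (0.95), miR-1195 (0.95) and miR-1943-5p (0.94). For miR-2137 they were miR-1195 (0.94), miR-423-3p (0.94), miR-3470b (0.94), miR-1249-3p (0.94) and miR-1943-5p (0.93). So 4 of the 5 names were in both sets, which the group difference that miR-3960 and miR-2137 share favours. Much of each r is the difference between the groups, and the libraries share depth and scaling. With group means taken out, r with miR-3960 was 0.85 for miR-3470b, 0.89 for miR-712-5p, 0.81 for miR-1249-3p, 0.81 for miR-1195 and 0.67 for miR-1943-5p, and r with miR-2137 was 0.86 for miR-1195 and 0.34 for miR-423-3p.

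The names most like miR-3960 and miR-2137 had smaller fold changes than that pair, which follows from the pair leading the ranking. They were found by likeness over both groups to names chosen for their rise. Their own rise is therefore in large part a result of that choice and is given without a test. miR-712-5p, described as a product of ribosomal RNA precursors, rose from 15 ± 3.29 to 93.4 ± 79.9 CPM (SD, n = 6 each; log2 fold change 2.61 ± 0.48, SE). miR-3470b rose from 23.3 ± 8.4 to 345 ± 305 CPM (3.89 ± 0.58) and miR-1195 from 46.4 ± 24.2 to 328 ± 270 CPM (2.84 ± 0.50). miR-1943-5p rose by 2.90 ± 0.43, miR-1249-3p by 1.34 ± 0.30 and miR-423-3p by 1.12 ± 0.20. For miR-2861 the most alike were miR-125b-5p (r = 0.79), miR-29b-3p (0.78), miR-379-5p (0.70), miR-341-3p (0.69) and miR-148b-5p (0.65), none past the threshold, but its own counts are too few to read a pattern from.

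Other names with a high share of G and C in the mature sequence did not all rise. Of 36 such names with at least 75% G and C, 4 (11.1%) passed the filter, beside 17.8% of all 1915 names. By the test 2 (50%) rose, beside 24.6% of all names, 0 fell and 2 did neither. With only 4 names the share is a description. Their median log2 fold change was 0.80, beside 0.03 over all names. The sequences of 3 of the 4 are set out with seeds in capitals, to show how near they are to the names above:
miR-5126: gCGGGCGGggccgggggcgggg
miR-6538: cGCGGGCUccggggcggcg
miR-6236: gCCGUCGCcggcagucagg
miR-5126, made of G and C alone, rose from 23.5 ± 9.73 to 188 ± 242 CPM (SD, n = 6 each; log2 fold change 3.01 ± 0.71, edgeR adjusted p = 0.00271), and miR-6538 from 12.8 ± 5.56 to 48.6 ± 24.1 CPM (1.91 ± 0.45, adjusted p = 0.00256). The groups overlapped for both. miR-6236, at 79% G and C, had 88.2 ± 26.7 CPM in sham and 59.7 ± 22.9 in BDL (-0.56 ± 0.34, adjusted p = 0.2). miR-8109, whose sequence is not printed, had -0.32 ± 0.47 (adjusted p = 0.627). Its share of G and C was 95.2%, beside 94.7% for miR-6538, so the names that did not rise were not only the less GC-rich.

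Other microRNAs that act on Runx2 or on bone formation went both ways. Of 35 names listed, 21 passed the filter, of which 4 rose, 7 fell and 10 did neither by the test, with a median log2 fold change of -0.40 (19% higher and 33.3% lower, beside 24.6% and 18.2% of all names). Highest were miR-214-3p, known to restrain bone formation, at 1.69 ± 0.29 (edgeR adjusted p = 3.37e-04), miR-23a-3p, a repressor of Runx2, at 1.35 ± 0.45 (adjusted p = 0.0215) and its cluster partner miR-24-3p at 1.06 ± 0.25 (adjusted p = 0.0029). Lowest were miR-205-5p at -1.94 ± 0.29 (adjusted p = 8.39e-05), miR-206-3p at -1.94 ± 0.42 (adjusted p = 0.00176) and miR-204-5p, another repressor of Runx2, at -1.89 ± 0.54 (adjusted p = 0.00987).

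The defining markers of the cells that feed plasma vesicles were all present, with 0 of 17 names at 0 in either group. The hepatocyte markers summed to 4013 to 25209 CPM in sham and 74747 to 327679 in BDL, where miR-122-5p and miR-192-5p (3.37 ± 0.34, edgeR adjusted p = 3.13e-06) were higher and miR-194-5p was not past the threshold (0.78 ± 0.40, adjusted p = 0.124). The red cell markers summed to 7806 to 13434 CPM in sham and 510 to 2438 in BDL, with miR-451a (-2.63 ± 0.33, adjusted p = 3.51e-05) and miR-16-5p lower (-2.06 ± 0.46, adjusted p = 0.00189). miR-144-3p was not past the threshold (-0.60 ± 0.58, adjusted p = 0.437), and miR-144-5p did not pass the filter. miR-486a-5p, a red cell name outside this list, was far more abundant (392088 ± 74046 CPM in sham, 278640 ± 104186 in BDL). It was not past the threshold (-0.49 ± 0.28, adjusted p = 0.162), while its 3p arm was lower (-1.74 ± 0.24, adjusted p = 6.53e-05). Beside 18.2% lower among all names, of 5 leukocyte markers 0 were higher and 3 lower, among them miR-150-5p (-1.96 ± 0.42), and both platelet and endothelial markers were lower, miR-126a-3p by -1.79 ± 0.40. Of 3 striated muscle markers 2 were lower. These moved with the rises of miR-3960 and miR-2137, and their part in them was not tested.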

How the data were processed

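The authors deposited whole-number counts of reads per mature microRNA name, 1 column per library, with no normalisation that the values show. Per the labels' protocols, ExoQuick precipitated the vesicles of 250 µl of plasma, and NEBNext small RNA libraries were made from 40 ng of RNA with 15 PCR cycles, in pools of 12. Per the submitters' processing notes, cutadapt and STAR were used; their versions, the genome build and the annotation are not known from the sources used here. The 67 names of other species were left out. Every column matched 1 sample title.

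Counts were tested with edgeR 4.0.16 (R 4.3.3): quasi-likelihood F test, TMM scaling, filterByExpr by group, Benjamini-Hochberg adjustment over 341 names, threshold 0.05. Each SE was derived as |log2 fold change|/√F. Log2 CPM has a prior count of 2. The scripts were tested on simulated data. DESeq2 1.42.0 and limma 3.58.1 served as alternatives. The members and lists were chosen with earlier results of these data known. Named names were the 5 most like each member, the 5 next rises, the 4 highest and lowest of the GC-rich list, the 3 highest and lowest of the bone list, and the markers. The fit without BDL libraries of suffix 26, the settings of the within-BDL contrast and the reading of miR-2861 from unfiltered fits were added after the data had been seen. Hairpin stretches of 18 bases were searched in GENCODE M21 transcripts.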

Additional observations from a re-analysis of the deposited data

Results flagged for a closer look

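Of 86 groups of 6 values examined on a log2 scale, 7 held a library far from the others by Dixon's test, where chance gives about 1 in 20. The log2 ratio of miR-3960 to miR-2137 was 4.07 in BDL 2 and 2.01 in the next library. BDL 4 has the fewest counts, and there log2 CPM was 0.21, a count of 0 that allows up to 24 CPM, for miR-206-3p, miR-223-3p and miR-341-3p, and 5.62 for miR-133a-3p. It was 5.36 for miR-6236 in sham 1 and 1.42 for miR-144-3p in sham 6. The effect of ligation differed between code suffixes for miR-6964-5p by 3.82 log2 units (edgeR interaction, adjusted p = 0.0115; 1.37 in suffix 24 and 5.19 in suffix 26, the same direction) and for miR-126a-3p by -2.53 (adjusted p = 0.00357; -0.71 and -3.25).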

How the results depend on the processing

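The rises of miR-3960 and miR-2137 kept their direction in all 27 other settings. The log2 fold change of miR-3960 was 5.35 in suffix 24 alone, 5.37 as a difference of medians and 4.90 without the BDL libraries of suffix 26, and ran from 5.76 (without BDL 2) to 8.21 when libraries were left out in turn; miR-2137 ran from 4.72 to 5.49. That of miR-2861 ran from -1.37 to -0.37 in this way and reversed to 0.84 ± 1.42 (SE) in suffix 26 alone. The counts higher and lower in BDL, 84 and 62, were 37 and 31 when thinned, 54 and 48 in suffix 26 alone, and 65 to 89 and 54 to 70 with libraries left out. DESeq2 size factors moved the median of all names by -0.14.

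Sample numbers did not pair the libraries: deviations of same-numbered libraries correlated at -0.089 to 0.31, and 2 of 6 BDL libraries correlated best with their own number. Libraries that share the first digit of the code, always of the same group, correlated at -0.557 to -0.108. Deviations from a group mean cancel out within the group, so these values cannot show whether such libraries are independent. With the sample number as a replicate block, 72 names were higher and 61 lower, and miR-3960, miR-2137 and miR-2861 had 6.14, 4.95 and -1.06.

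Names whose ligation effect differed between suffixes numbered 8, 31 by DESeq2 and 2 to 14 with libraries left out (2 without BDL 1, sham 1 or sham 2; 5 without BDL 2 or sham 3, 14 without sham 6). Those that differed between suffixes within BDL numbered 64, 99 with total counts only, 34 when thinned and 31 to 67 with libraries left out (31 without BDL 1); within sham they numbered 0 throughout. Without the 2 farthest libraries, the BDL correlations of miR-3960 reversed to -0.30 with miR-2137 and -0.37 with miR-2861. The causes were not tested. Depth limits miR-2861 most, since 3 counts in BDL 4 exceed every level measured for it.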
